A study of Homo sapiens with 20 samples.

Results

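The STEAP metalloreductase family and 3 further surface antigens of prostate cancer, 7 genes in all, were followed through knockdown of LSD1 and through androgen treatment of prostate cancer cells. The genes were STEAP1, STEAP2, STEAP3, STEAP4, FOLH1, PSCA and CD276. Each was taken from the probe sets annotated to that gene alone, 11 probe sets in all, and the brightest one stood for the gene, as for all 19775 genes with such a probe set. On these Affymetrix 3′ arrays STEAP1, STEAP2, FOLH1 and PSCA each had 1 such probe set, STEAP3 and STEAP4 had 2 and CD276 had 3.

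STEAP proteins are membrane enzymes named as six-transmembrane epithelial antigens of the prostate. STEAP2, STEAP3 and STEAP4 carry electrons from NADPH across the membrane to reduce ferric iron and cupric copper, the step that precedes uptake of these metals, while STEAP1 lacks the NADPH-binding domain and can act in complexes with its relatives. FOLH1 encodes prostate-specific membrane antigen, a carboxypeptidase that releases glutamate from folates and from a brain dipeptide and that is the target of prostate imaging agents and radioligands. PSCA encodes a lipid-anchored protein of the LY6 family, and CD276 encodes an immune checkpoint ligand of the B7 family.

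The study used 20 arrays in 6 groups. C42B cells, a castration-resistant derivative of LNCaP, were transfected for 6 h with siLSD1, an siRNA against LSD1, or with the control siNTC, followed by 96 h in 10% charcoal-stripped serum (CSS), which is low in steroids (3 arrays per group, RNA from separate wells). C42B cells without siRNA were held in 10% CSS for 72 h and then given 100 nM dihydrotestosterone (DHT), the potent androgen, or ethanol vehicle for 16 h (4 arrays per group, RNA from separate wells). LNCaP cells, an androgen-sensitive line from a lymph node metastasis, were transfected with siLSD1 or siNTC at 50 nM and grown on in 10% fetal bovine serum for 96 h (3 arrays per group, each from RNA of pooled wells). Both lines are established, and no label says that the wells came from separately grown cultures, so the p-values reflect how far these arrays varied, which may be partly technical. All levels below are log2 of the deposited intensity, and each change is a difference of group means on that scale, given with its standard error (SE). A gene passed at a limma p, adjusted by Benjamini-Hochberg over all 19775 genes, under 0.05. A group mean under 6 was called dim, since the array medians lay near that level. Array medians fell in separate ranges for the 3 experiments, so levels were compared only within an experiment. In bulk RNA, fewer cells making a transcript and less transcript per cell cannot be told apart.

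KDM1A, the gene of LSD1, averaged 7.88 ± 0.12 with siLSD1 in C42B, where siNTC gave 10.29 ± 0.08, and 7.30 ± 0.09 with siLSD1 in LNCaP and 10.08 ± 0.14 (SD, n = 3 each) with siNTC. The limma changes were −2.40 (adjusted p = 1.2e-05) and −2.78 (adjusted p = 2.4e-06), and the exact permutation p of 0.1 was the smallest that 3 arrays against 3 allow. Known androgen-induced genes rose with DHT, with changes of 2.74 for KLK3, 3.08 for TMPRSS2 and 3.12 for FKBP5 (limma adjusted p = 1.0e-08, 7.2e-10 and 1.3e-10). All 6 measured luminal prostate markers were bright in every group. The 3 measured basal epithelial markers were at most 6.49, and CD3E, the brighter of the 2 measured leukocyte markers, was at most 6.99. In each group 2 of 4 endothelial markers were dim, and the others reached 7.73 (VWF, LNCaP siNTC). Of the 6 stromal and adipocyte markers 3 or 4 were dim in each group, while COL1A1 averaged 7.81 to 8.94 and was not dim in any.

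STEAP1, STEAP2 and STEAP4 lie on the long arm of chromosome 7. In the GRCh38.p14 assembly, STEAP4 spans chr7:88270892-88306894, STEAP1 chr7:90154469-90164827 and STEAP2 chr7:90211740-90243408. STEAP1 and STEAP2 are neighbours 46.9 kb apart, and STEAP4 lies 1.85 Mb from STEAP1. STEAP3 is on chromosome 2 (chr2:119223834-119265652), FOLH1 on chromosome 11 (chr11:49145092-49208602) and CD276 on chromosome 15 (chr15:73683944-73714514). The promoter windows of STEAP4, the gene that moved most with DHT, and of STEAP1 and STEAP2, the pair that moved together with siLSD1, are given here from RefSeq, GRCh38.p14, from 250 bases before to 50 bases after the annotated start and 5′ to 3′ on the strand of the gene. They come from chr7:88306845-88307144 (minus strand), chr7:90154219-90154518 (plus strand) and chr7:90211490-90211789 (plus strand, the first of its annotated starts). Capitals mark CCGCCC, the GC box that Sp1-family factors can bind, and CAGCTG, an E-box.
STEAP4: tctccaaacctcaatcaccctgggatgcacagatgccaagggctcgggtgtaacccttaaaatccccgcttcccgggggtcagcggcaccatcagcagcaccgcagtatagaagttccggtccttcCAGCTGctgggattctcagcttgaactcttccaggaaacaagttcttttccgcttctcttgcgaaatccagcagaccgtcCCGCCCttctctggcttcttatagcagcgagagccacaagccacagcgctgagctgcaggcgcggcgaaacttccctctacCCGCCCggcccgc
STEAP1: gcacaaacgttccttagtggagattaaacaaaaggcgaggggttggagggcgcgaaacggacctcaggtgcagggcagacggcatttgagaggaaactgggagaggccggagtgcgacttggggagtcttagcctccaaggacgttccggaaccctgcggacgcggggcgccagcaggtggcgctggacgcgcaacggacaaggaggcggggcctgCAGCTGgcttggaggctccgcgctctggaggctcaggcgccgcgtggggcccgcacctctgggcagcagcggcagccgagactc
STEAP2: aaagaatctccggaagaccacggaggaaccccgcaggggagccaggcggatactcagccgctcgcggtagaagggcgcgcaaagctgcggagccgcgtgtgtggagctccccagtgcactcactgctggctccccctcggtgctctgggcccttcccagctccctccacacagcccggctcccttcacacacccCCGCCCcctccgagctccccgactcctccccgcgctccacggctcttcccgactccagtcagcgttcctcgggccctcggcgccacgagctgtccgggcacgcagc

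STEAP4 held a CAGCTG 124 bases before its start and a GC box 44 bases before it, with another GC box 37 bases after it. STEAP1 held a CAGCTG 34 bases before its start and no GC box in this window, and STEAP2 held a GC box 56 bases before its start and no CAGCTG. Both motifs are common. Searched on both strands in 35116 promoter windows of the same length, CCGCCC occurred in 45% and CAGCTG in 17.9%, against 5 and 3 of the 7 windows matched to these genes (5 genes had a window). AGAACA, the half-site of the androgen response element, occurred in 14.8% of the windows and in none of these genes' windows, which says only that these letters are not within these bases. TATAAA, the TATA box, occurred in 11.5% of all windows and in 1 of these genes' windows, at the second annotated start of STEAP2. The marked motifs do not overlap one another in the printed windows. The STEAP1 window was identical to that of its paralogue STEAP1B at 290 of 300 bases (96.7%).

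**Figure D1:**
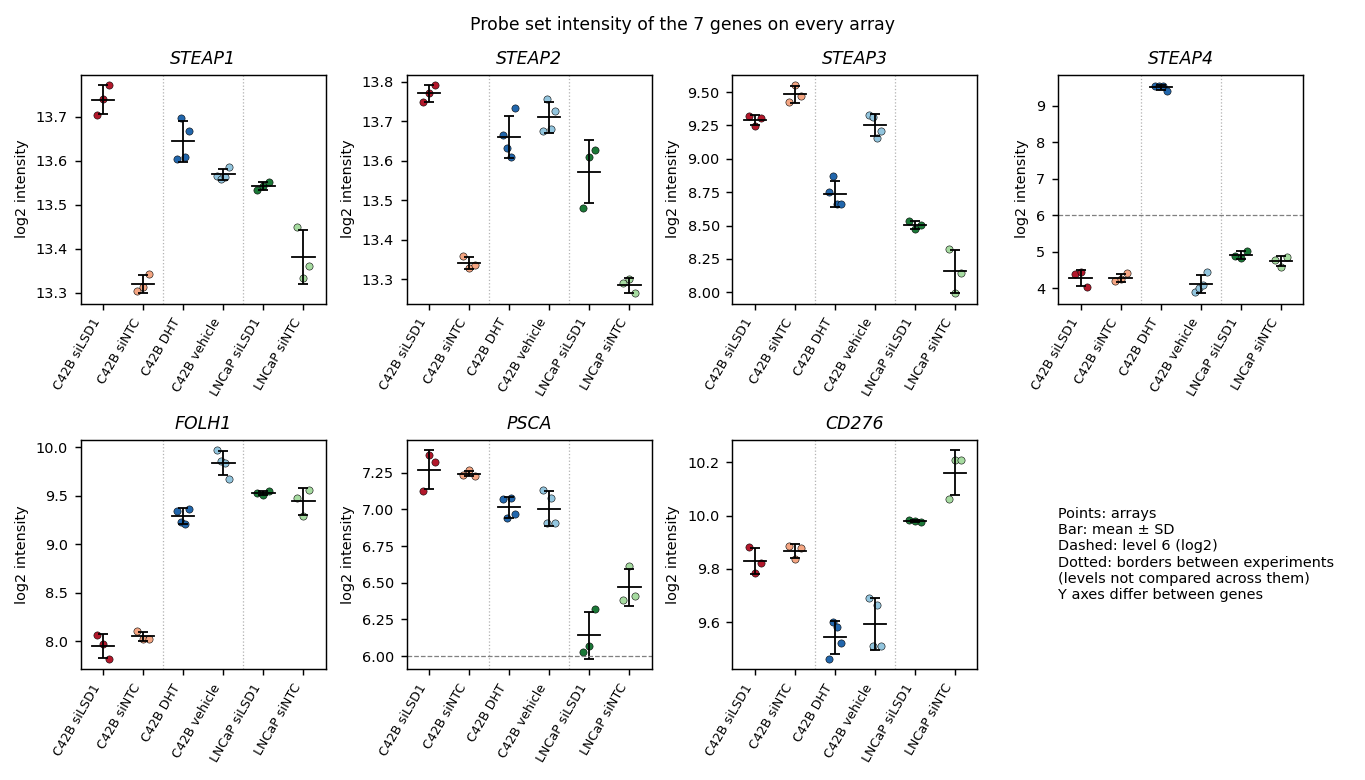
Log2 intensity of the 7 genes (y axis, a separate scale for each gene) on every array of the 6 groups (x axis), with points for arrays and bars for mean ± SD. STEAP1 and STEAP2 separate siLSD1 from siNTC arrays in both lines, STEAP4 is above the dim level of 6 on the DHT arrays and on no other, and STEAP3 and FOLH1 are lower on DHT arrays than on vehicle arrays.

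Knockdown of LSD1 in C42B raised STEAP1 and STEAP2 by nearly the same amount, 1.34-fold and 1.35-fold. STEAP3 was slightly lower, at the edge of the test, and STEAP4, FOLH1, PSCA and CD276 did not pass. Of the 7 genes, 3 passed, 2 higher and 1 lower, where 18.0% of all genes passed (8.66% higher and 9.39% lower).

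STEAP1 (probe set 205542_at) had log2 intensities of 13.71, 13.74 and 13.77 on the siLSD1 arrays of C42B and 13.30, 13.31 and 13.34 on the siNTC arrays. Every siLSD1 array lay above every siNTC array, and the change was 0.42 ± 0.05 (limma adjusted p = 0.0016). STEAP2 (225871_at), an iron and copper reductase, had 13.75, 13.77 and 13.79 with siLSD1, against 13.36, 13.33 and 13.34 with siNTC. These groups did not overlap either, with a change of 0.43 ± 0.05 (limma adjusted p = 0.0013). Both calls held under all 14 alternatives run, in which the change ranged over 0.39 to 0.44 for STEAP1 and over 0.40 to 0.44 for STEAP2.

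STEAP3 (218424_s_at), the endosomal ferrireductase that serves transferrin-bound iron in red cell precursors, had 9.32, 9.25 and 9.30 with siLSD1, against 9.43, 9.55 and 9.47 with siNTC. The siLSD1 arrays were the lower ones without overlap, and the change was −0.19 ± 0.05, or −12.6% (limma adjusted p = 0.047). The call was lost without any 1 of the 6 arrays, at changes of −0.22 to −0.16 and adjusted p of 0.056 to 0.15: without siLSD1 array 1, 2 or 3 the adjusted p was 0.056, 0.15 and 0.12, and without siNTC array 1, 2 or 3 it was 0.064, 0.14 and 0.098. It held under 3 of 14 alternatives, and the second STEAP3 probe set, 1554830_a_at, was near the dim level and gave −0.08 (adjusted p = 0.61 over all 41091 probe sets that name 1 gene).

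STEAP4 (225987_at), a metalloreductase best known from adipocytes, was dim on all 6 siRNA arrays of C42B. It had 4.37, 4.43 and 4.03 with siLSD1 and 4.19, 4.25 and 4.40 with siNTC, and no size is given between dim groups (limma adjusted p = 1). FOLH1 (217483_at) had 8.06, 7.97 and 7.82 with siLSD1, against 8.10, 8.03 and 8.02 with siNTC. These groups overlapped and the change was −0.10 ± 0.07 (limma adjusted p = 0.40). PSCA (205319_at) averaged 7.27 ± 0.13 with siLSD1 and 7.24 ± 0.02 (SD, n = 3 each) with siNTC, a change of 0.03 ± 0.07 (limma adjusted p = 0.85).

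For CD276 the probe sets of C42B differed. The brightest, 224859_at, averaged 9.83 ± 0.05 with siLSD1 and 9.87 ± 0.03 (SD, n = 3 each) with siNTC, a change of −0.04 ± 0.05 (limma adjusted p = 0.68). A second, 1552914_a_at, averaged 5.85 with siLSD1, which is dim, and 6.11 with siNTC. Counted from the dim level it fell by at least 0.11 (fitted difference −0.27, adjusted p = 0.019 over the 41091 probe sets). The third, 1559583_at, was dim in both groups and did not pass (adjusted p = 0.12). Averaged over its probe sets, CD276 passed at −0.21 (limma adjusted p = 0.025), although its brightest probe set changed by −0.04.

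In LNCaP, which was kept in full serum, knockdown of LSD1 raised STEAP2 1.22-fold and STEAP3 1.27-fold, and PSCA fell by 20.3%. STEAP1 and CD276 lay apart between the groups without passing, and STEAP4 and FOLH1 did not pass. Here too 3 of the 7 genes passed, 2 higher and 1 lower, where 25.9% of all genes passed (13.4% higher and 12.5% lower).

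STEAP2 had 13.48, 13.61 and 13.63 with siLSD1 in LNCaP, against 13.29, 13.30 and 13.27 with siNTC. The groups did not overlap, the change was 0.29 ± 0.06 (limma adjusted p = 0.0093), and the call held under all 14 alternatives. STEAP1 had 13.54, 13.54 and 13.55 with siLSD1 and 13.45, 13.33 and 13.36 with siNTC. All siLSD1 arrays were above all siNTC arrays, but the change of 0.16 ± 0.06 did not pass (limma adjusted p = 0.074, 95% interval 0.03 to 0.29). It passed under 4 of 14 alternatives, among them without siNTC array 1, the highest of the siNTC arrays, at 0.20 (adjusted p = 0.037).

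STEAP3 had 8.53, 8.47 and 8.51 with siLSD1 in LNCaP and 8.33, 7.999 and 8.15 with siNTC. The siLSD1 arrays lay above all siNTC arrays and the siNTC arrays were the more spread, with a change of 0.35 ± 0.08 (limma adjusted p = 0.017). Without siLSD1 array 1, siLSD1 array 3 or siNTC array 3 the change was 0.33, 0.35 and 0.34 and the adjusted p 0.058, 0.059 and 0.052. The mean of the STEAP3 probe sets gave 0.22 (adjusted p = 0.078), and the call held under 10 of 14 alternatives. The second STEAP3 probe set was dim in both LNCaP groups and did not pass (adjusted p = 0.52).

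PSCA, a gene of chromosome 8, had 6.03, 6.07 and 6.32 with siLSD1 in LNCaP, against 6.38, 6.61 and 6.41 with siNTC, all close to the dim level. The siLSD1 arrays were lower without overlap, and the change was −0.33 ± 0.10 (limma adjusted p = 0.038). Leaving out siLSD1 array 1 or 2, or siNTC array 2 or 3, ended the call, at −0.27, −0.29, −0.26 and −0.36 with adjusted p of 0.12, 0.12, 0.12 and 0.064.

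CD276 in LNCaP had 9.98 on each of the 3 siLSD1 arrays and 10.06, 10.21 and 10.21 on the siNTC arrays. The siLSD1 arrays were the lower ones without overlap, at −0.18 ± 0.06, and the gene missed the threshold (limma adjusted p = 0.065), though it passed under 5 of 14 alternatives, among them without siNTC array 1 (−0.23, adjusted p = 0.019). FOLH1 had 9.53, 9.51 and 9.55 with siLSD1 and 9.47, 9.29 and 9.56 with siNTC, overlapping groups with a change of 0.09 ± 0.08 (limma adjusted p = 0.47). STEAP4 was dim on all 6 arrays, at 4.89, 4.81 and 5.02 with siLSD1 and 4.76, 4.59 and 4.86 with siNTC, and did not pass (limma adjusted p = 0.21).

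The effect of siLSD1 was larger in C42B than in LNCaP for STEAP1 and opposite in sign for STEAP3. The difference, C42B minus LNCaP, was 0.26 ± 0.07 for STEAP1 (limma adjusted p = 0.031) and −0.54 ± 0.10 for STEAP3 (limma adjusted p = 0.0053). These 2 of the 7 genes passed, 1 in each direction, where 11.6% of all genes passed (5.56% higher and 6.06% lower). The STEAP3 difference held under all 20 alternatives, at −0.62 to −0.36. The STEAP1 difference held under 10 of 20, and leaving out siLSD1 array 2 or 3 or siNTC array 1 or 2 of C42B, or any siLSD1 array of LNCaP, ended the call at 0.24 to 0.26 (adjusted p = 0.068, 0.081, 0.068, 0.062, 0.060, 0.068 and 0.054 in that order). For STEAP2 the difference was 0.14 ± 0.07 with a 95% interval of −0.01 to 0.30 (limma adjusted p = 0.25). PSCA differed by 0.35 ± 0.13 without passing (limma adjusted p = 0.097), and it passed without siLSD1 array 1 of C42B (0.43, adjusted p = 0.041) or without siLSD1 array 3 of LNCaP (0.44, adjusted p = 0.035). FOLH1, CD276 and STEAP4 did not pass either. The lines also differed in serum and in transfection, which cannot be told apart from line.

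With DHT, STEAP4 was clearly measured where it was dim with vehicle, STEAP3 fell by 30.1% and FOLH1 fell by 31.5%. STEAP1, STEAP2, PSCA and CD276 did not pass. Of the 7 genes 3 passed, 1 higher and 2 lower, where 32.7% of all genes passed (13.4% higher and 19.4% lower).

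STEAP4 had 9.55, 9.54, 9.53 and 9.41 on the DHT arrays, against 3.88, 3.99, 4.09 and 4.45 on the vehicle arrays. The groups were far apart, the vehicle arrays being all dim. Counted from the dim level of 6, the change was at least 3.51, or at least 11.4-fold (limma adjusted p = 1.4e-09). The fitted difference of 5.40 ± 0.11 is taken against vehicle values below that level. The second STEAP4 probe set, 220187_at, averaged 5.74 with DHT and 4.07 with vehicle, dim in both groups, so no size is given for it (adjusted p = 3.2e-06 over the 41091 probe sets). The call held under all 16 alternatives, with fitted differences of 3.54 to 5.52. Among the stromal and adipocyte markers, 4 of 6 were dim in both groups, and the summed intensity of all 6 on the linear scale was 630.3 to 726.4 with DHT and 742.9 to 866.0 with vehicle.

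STEAP3 had 8.75, 8.87, 8.67 and 8.66 with DHT, against 9.33, 9.31, 9.16 and 9.21 with vehicle. Every DHT array lay below every vehicle array, and the change was −0.52 ± 0.06 (limma adjusted p = 0.00015). Its second probe set fell by 0.42 on the log2 scale (adjusted p = 0.00072). FOLH1 had 9.35, 9.23, 9.21 and 9.37 with DHT, against 9.97, 9.86, 9.84 and 9.67 with vehicle. Its groups did not overlap, and the change was −0.55 ± 0.07 (limma adjusted p = 0.00021). FOLH1 has long been described as an androgen-repressed gene of prostate cells. Both calls held under all 16 alternatives, at −0.56 to −0.47 for STEAP3 and −0.60 to −0.50 for FOLH1.

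FOLH1 has a close copy, the transcribed pseudogene FOLH1B on the same chromosome, and further probe sets name one or both, so signal may be shared between them. The 3 probe sets that name both, which were added after seeing the data, were bright, at group means of 12.65 to 13.93, and changed with DHT by −0.56, −0.47 and −0.68 (adjusted p = 9.7e-06, 3.2e-05 and 5.4e-06 over all 54613 probe sets other than controls). The probe set 211303_x_at, annotated to FOLH1B alone, averaged 11.78 with DHT and 12.59 with vehicle, a change of −0.81 ± 0.06 (adjusted p = 5.4e-06 over the 41091). None of these 4 probe sets passed with siLSD1 in C42B or LNCaP, where their changes lay between −0.04 and 0.07.

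STEAP1 had 13.60, 13.70, 13.61 and 13.67 with DHT and 13.57, 13.56, 13.56 and 13.59 with vehicle. The groups did not overlap, but the change was 0.08 ± 0.04 (limma adjusted p = 0.18, 95% interval −0.01 to 0.16), and it passed under 1 of 16 alternatives, a limma fit with trended and robust variance (adjusted p = 0.013). STEAP2 had 13.67, 13.63, 13.61 and 13.73 with DHT and 13.68, 13.76, 13.68 and 13.73 with vehicle. These overlapped, with a change of −0.05 ± 0.04 (limma adjusted p = 0.43). PSCA averaged 7.01 ± 0.07 with DHT and 7.01 ± 0.12 with vehicle, and CD276 9.54 ± 0.06 with DHT and 9.59 ± 0.10 with vehicle (SD, n = 4 each), and neither passed (limma adjusted p = 0.95 and 0.54).

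**Figure D2:**
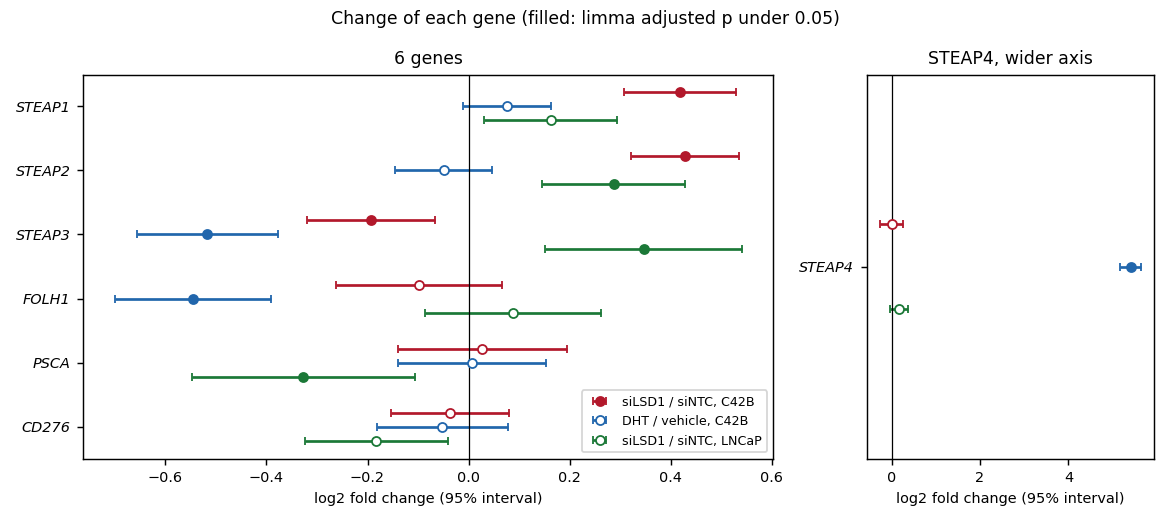
Change of each gene (y axis) on the log2 scale (x axis, tested over control) with its 95% interval, for siLSD1 over siNTC in C42B, DHT over vehicle in C42B and siLSD1 over siNTC in LNCaP, filled where the limma adjusted p was under 0.05. STEAP4 has its own wider axis, where the fitted DHT difference is drawn and the bound is at least 3.51; STEAP1 and STEAP2 lie right of 0 with siLSD1 and near 0 with DHT, while STEAP3 and FOLH1 lie left of 0 with DHT.

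The effects of DHT and of siLSD1 in C42B, which come from separate experiments with their own controls, were also set against each other in a contrast added after seeing the data. Of the 7 genes 5 passed, 1 higher with DHT and 4 lower, where 30.4% of all genes passed (14.4% higher and 16.0% lower). STEAP4 was the higher one (limma adjusted p = 4.1e-11), with 3 of its 4 groups dim, so the contrast gives it no size. The DHT effect minus the siLSD1 effect was −0.48 ± 0.06 for STEAP2 (limma adjusted p = 1.9e-05), −0.34 ± 0.05 for STEAP1 (2.0e-04), −0.45 ± 0.10 for FOLH1 (0.0041) and −0.32 ± 0.08 for STEAP3 (0.0096). All 5 held under the 22 alternatives run for this contrast. Treatment, time in stripped serum and experiment differ together here and cannot be told apart.

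**Figure D3:**
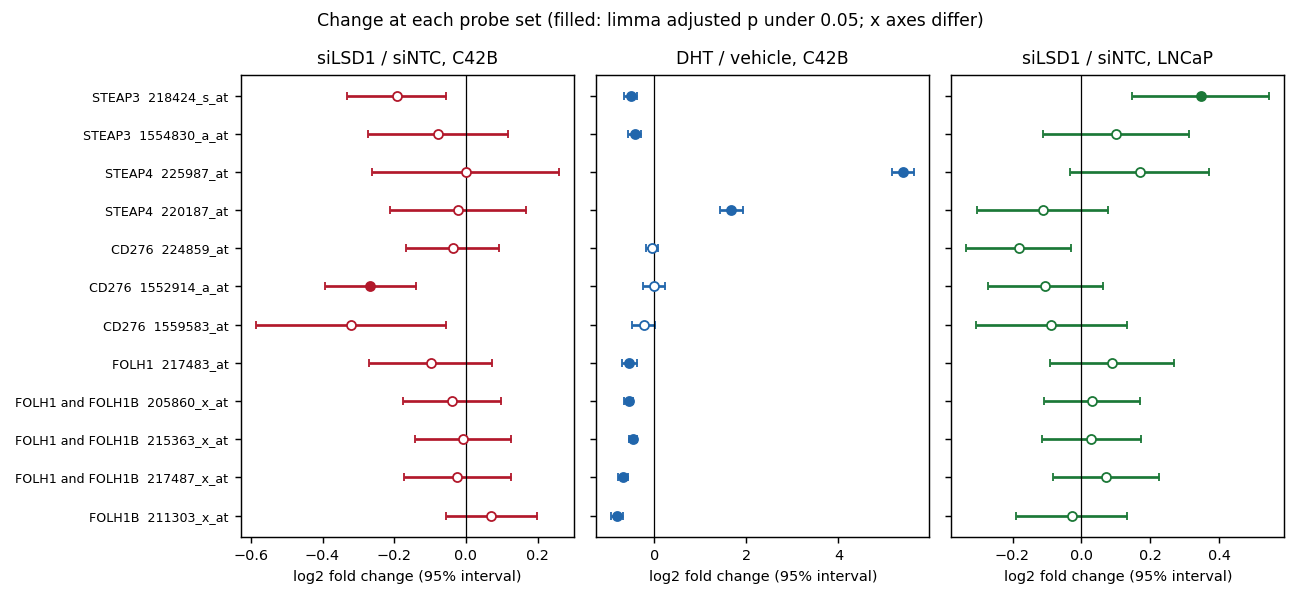
Change on the log2 scale (x axes, one scale per panel) with its 95% interval at each probe set (y axis) of STEAP3, STEAP4, CD276, FOLH1 and FOLH1B in the 3 comparisons, filled where the limma adjusted p over probe sets was under 0.05. With DHT both STEAP3 and both STEAP4 probe sets and all 5 that name FOLH1 or FOLH1B passed; with siLSD1 in C42B the filled one is a CD276 probe set, and in LNCaP the brighter STEAP3 probe set.

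The gene next to STEAP2, CFAP69, which encodes a protein of cilia and flagella and lies 1.8 kb beyond STEAP2, also rose with siLSD1. It averaged 9.26 ± 0.05 with siLSD1 and 8.87 ± 0.06 with siNTC in C42B, a change of 0.39 ± 0.06 (limma adjusted p = 0.0036), and 10.58 ± 0.03 with siLSD1 and 10.24 ± 0.02 with siNTC in LNCaP, a change of 0.34 ± 0.05 (limma adjusted p = 0.0022; SD, n = 3 each). With DHT it averaged 9.21 ± 0.09, against 9.77 ± 0.14 with vehicle (SD, n = 4 each), and fell by 0.56 log2 units (limma adjusted p = 0.00036). The next measured gene beyond it, GTPBP10, and the nearest one before STEAP1, the pseudogene DPY19L2P4, were dim in every group and passed in none of the 3 comparisons. Around STEAP4, its measured neighbours SRI, which encodes the calcium-binding protein sorcin, and ADAM22, a membrane protein of synapses, lie 43.9 kb and 68.0 kb away. With DHT they changed by −0.05 and −0.09 (limma adjusted p = 0.43 and 0.29). ADAM22 changed by −0.18 with siLSD1 in C42B (limma adjusted p = 0.045), a call that held under 3 of 14 alternatives and was lost without siLSD1 array 2 or 3 or any 1 siNTC array, at −0.19 to −0.16 (adjusted p = 0.083 to 0.16). On the other side, ZNF804B and TEX47 were dim and passed nowhere.

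**Figure D4:**
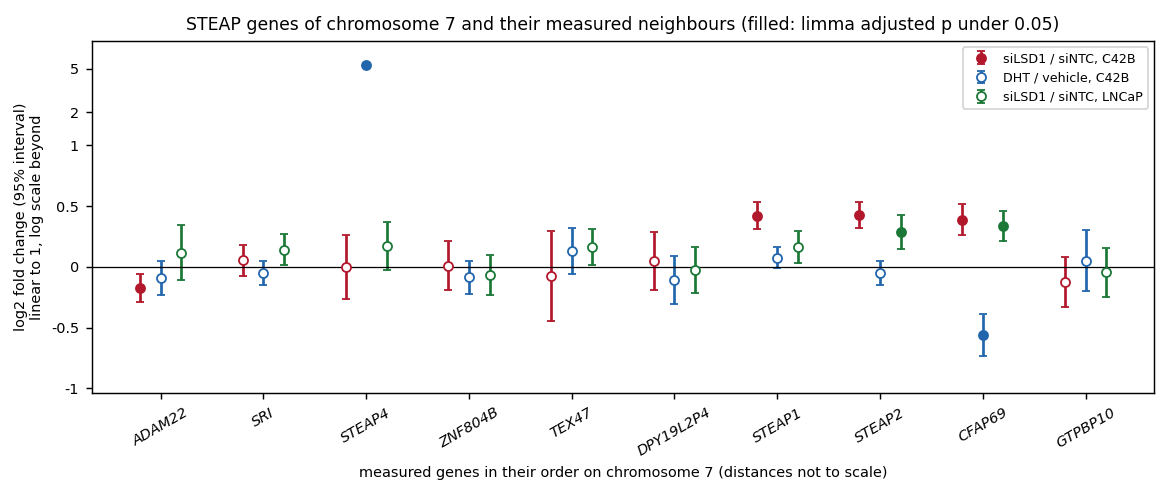
Change on the log2 scale with its 95% interval (y axis, linear to 1 and logarithmic beyond) for STEAP4, STEAP1, STEAP2 and their nearest measured neighbours in their order on chromosome 7 (x axis, not to scale). STEAP1, STEAP2 and CFAP69 lie above 0 with siLSD1 in both lines, filled where they passed, and with DHT STEAP4, drawn at its fitted difference, has a bound of at least 3.51 while CFAP69 lies at −0.56.

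Across the 20 arrays, each experiment centred on its own mean, STEAP1 and STEAP2 varied together (Pearson r = 0.89), as did STEAP3 and FOLH1 (r = 0.82), while STEAP4 ran against FOLH1 (r = −0.88) and STEAP3 (r = −0.76). These values describe arrays that share experiments and treatments and carry no test. The centring kept the differences between the groups of an experiment, so the correlations partly restate the changes given above. STEAP4, dim on all arrays but those with DHT, varied mostly by its step with DHT. Among bright genes, those with the pattern most like STEAP1 were ARG2, a mitochondrial arginase (r = 0.96), and DNAJC12, a co-chaperone (r = 0.96). For STEAP2 they were ORAI3, a calcium channel subunit (r = 0.97), and TMC4 (r = 0.96), and for STEAP3 ADCY1, an adenylate cyclase (r = 0.95), and MSRB2, a methionine sulfoxide reductase (r = 0.95). ARG2 differed by 1.49 with siLSD1 in C42B, against 0.42 for STEAP1. STEAP4 was closest to OFD1 and EAF2 (r = 0.99 each), whose DHT changes were 2.38 and 3.44. FOLH1 was closest to TTC9 (r = 0.93) and GPR176 (r = 0.91). PSCA and CD276 had looser partners, ESF1 at r = 0.82 and CNBP at r = 0.81 for PSCA, and CTBP1-DT at r = 0.86 and TKFC at r = 0.78 for CD276.

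Genes related to these antigens by function or family were counted in 5 lists, with genes dim in both groups included. The list paragraphs name changes that passed under every alternative run, so their stability follows from the choice. Changes added for the other line, given with their adjusted p, were taken without regard to the alternatives. Over all genes, 18.0% passed with siLSD1 in C42B (8.66% higher and 9.39% lower), 25.9% with siLSD1 in LNCaP (13.4% higher and 12.5% lower) and 32.7% with DHT (13.4% higher and 19.4% lower), at median changes of −0.02, 0.01 and 0.01. Of 28 measured genes of iron and copper handling, siLSD1 raised 5 and lowered 2 in C42B and raised 9 and lowered 7 in LNCaP, and DHT raised 4 and lowered 7. These are 25.0%, 57.1% and 39.3% of the list, against 18.0%, 25.9% and 32.7% of all genes, and the list medians were 0.07, 0.02 and −0.02. The mitochondrial iron importer SLC25A37 rose by 0.35 with siLSD1 in C42B and by 0.66 with DHT. It also rose by 0.26 with siLSD1 in LNCaP (limma adjusted p = 0.017). The endosomal iron importer SLC11A2 rose by 0.58 with siLSD1 in LNCaP, where the iron chaperone PCBP1 fell by 0.29. With siLSD1 in C42B, SLC11A2 also rose, by 0.33, and PCBP1 also fell, by 0.23 (limma adjusted p = 0.0052 and 0.021). The metal transporter SLC39A8 and the heme exporter FLVCR1 each fell by 0.41 with siLSD1 in LNCaP. With DHT, the iron exporter SLC40A1 fell by 0.83 and the copper pump ATP7A by 0.35, while the copper transporter SLC31A2 rose by 0.35.

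Of 18 measured genes of folate use and relatives of FOLH1, siLSD1 raised 2 and lowered 5 in C42B and raised 1 and lowered 6 in LNCaP, and DHT raised 1 and lowered 6. In each comparison 38.9% of the list passed, against 18.0%, 25.9% and 32.7% of all genes, and the median changes were −0.07, −0.15 and −0.04, against −0.02, 0.01 and 0.01. The members that fell with siLSD1 in both lines included thymidylate synthase TYMS, with changes of −0.47 in C42B and −1.47 in LNCaP, the mitochondrial folate enzyme MTHFD2, with −0.42 and −0.96, and the folate hydrolase GGH, with −0.37 and −0.95. The peptidase DPP4 rose by 0.66 with siLSD1 in C42B and by 1.14 with DHT. The siLSD1 effect on TYMS, DPP4 and GGH differed between the lines, C42B minus LNCaP, by 1.00, 0.66 and 0.58 (limma adjusted p = 3.8e-05, 0.0030 and 0.0040).

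Of 16 LY6/uPAR relatives of PSCA, all measured, siLSD1 raised 3 and lowered 1 in C42B and raised 3 and lowered 2 in LNCaP, and DHT raised 1 and lowered 3. These shares of 25.0%, 31.2% and 25.0% stand against 18.0%, 25.9% and 32.7% of all genes, with median changes of 0.05, 0.09 and −0.02. In the same order, 7, 11 and 7 of the 16 genes were dim in both groups. Among those were all the genes counted as lowered by siLSD1, in C42B and in LNCaP. In LNCaP the complement inhibitor CD59 rose by 0.57, LYNX1 by 0.44 and LYPD3 by 0.38. CD59 and LYPD3 also rose with siLSD1 in C42B, by 0.25 and 0.22 (limma adjusted p = 0.013 and 0.045). With DHT, LY6E rose by 0.29 and CD59 fell by 0.25.

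Of 16 B7 and butyrophilin relatives of CD276, siLSD1 raised 4 and lowered 0 in C42B and raised 7 and lowered 0 in LNCaP, and DHT raised 0 and lowered 4. These are 25.0%, 43.8% and 25.0% of the list, against 18.0%, 25.9% and 32.7% of all genes. The list medians, −0.02, 0.18 and 0.07, had the sign of these calls in LNCaP and not in the others. The butyrophilin BTN3A3 rose by 0.87 with siLSD1 in C42B and by 0.71 in LNCaP. In LNCaP the checkpoint ligand CD274 rose by 0.81 and BTN2A2 by 0.61. The BTN2A2 effect in C42B differed from that in LNCaP by −0.55 (limma adjusted p = 0.0047). The CD274 contrast passed too (limma adjusted p = 0.0089). CD274 was dim in C42B, at 5.69 with siLSD1 and 5.57 with siNTC, so no size is given for its contrast. With DHT, the NK cell ligand NCR3LG1 fell by 0.61, BTN3A2 by 0.47 and BTN2A2 by 0.38.

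Of 29 measured surface antigens of prostate and other epithelial cancers, siLSD1 raised 8 and lowered 2 in C42B and raised 7 and lowered 2 in LNCaP, and DHT raised 7 and lowered 5. The shares that passed were 34.5%, 31.0% and 41.4%, against 18.0%, 25.9% and 32.7% of all genes, with median changes of 0.06, 0.11 and 0.00. The cold-sensing channel TRPM8 rose by 1.497 with siLSD1 in C42B and by 1.88 in LNCaP, the transporter SLC45A3 (prostein) by 1.19 and 0.69, and the protease TMPRSS2 by 0.77 in each line. The heparan sulfate proteoglycan GPC1 fell by 0.58 in C42B. It also fell by 0.34 with siLSD1 in LNCaP (limma adjusted p = 0.01). With DHT, TRPM8 rose by at least 3.86 from the dim level, SLC45A3 by 3.83 and TMPRSS2 by 3.08, while the adhesion molecule ALCAM fell by 0.84, the receptor ERBB2 by 0.83 and CD24 by 0.56.

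**Figure D5:**
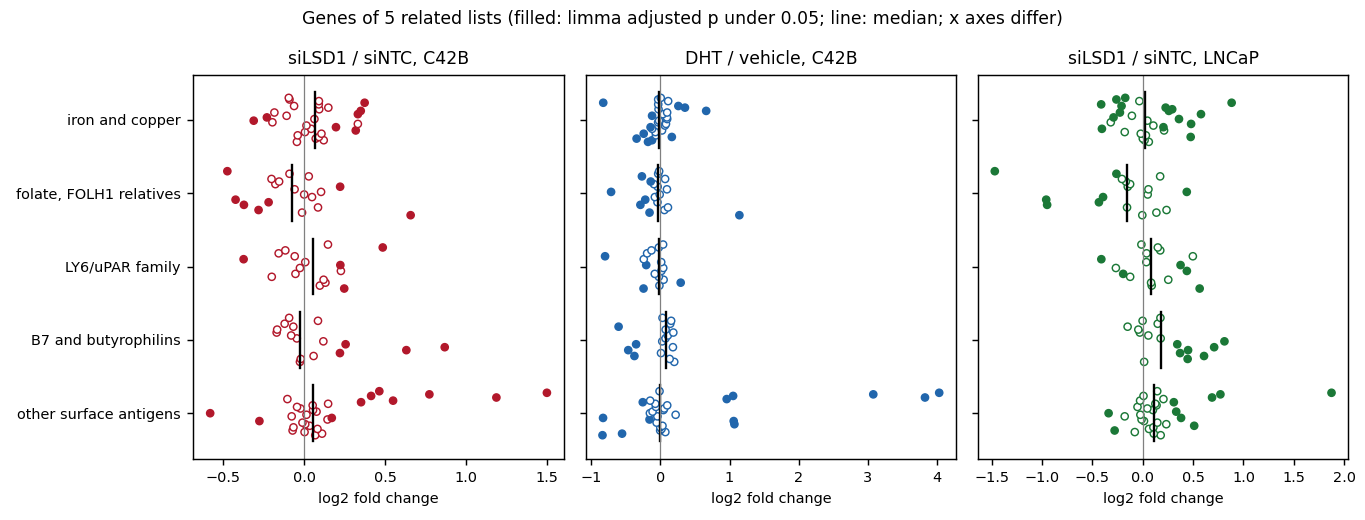
Change of each gene on the log2 scale (x axes, one scale per panel) in the 5 lists (y axis) with siLSD1 in C42B, DHT in C42B and siLSD1 in LNCaP, filled where the limma adjusted p was under 0.05, with a line at each list's median. The filled B7 and butyrophilin genes lie right of 0 with siLSD1 in both lines and left of 0 with DHT, and the rises past 3 with DHT are in the list of other surface antigens.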

How the data were processed

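Total RNA was measured on 20 Affymetrix 3′ arrays of 54675 probe sets. The deposited file holds 1 intensity per probe set and array on a linear scale, which the authors computed by RMA with affy, per the submitters' processing notes (no versions given in the sources used here). From there, log2 of each deposited intensity was taken. Controls (62), probe sets naming several genes (1801) or none (11721) in the annotation used here were left out of the gene tests, and the brightest of the 41091 others stood for each of 19775 genes. No dim probe set was removed. Array number and signal over background, not read depth, limit the precision.

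Array medians on the linear scale were 78.4 to 81.2 for the C42B siRNA arrays, 84.1 to 86.1 for the DHT and vehicle arrays and 63.3 to 65.1 for LNCaP, so the experiments were apparently normalized separately. Of a pair of labelling kits the labels give the names but not the samples, so no fit includes the kit.

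Each comparison was fitted on its own arrays with limma 3.58.1 (lmFit, eBayes; R 4.3.3), two-sided and without covariates. The contrast between lines used all siRNA arrays. Changes at single probe sets came from the same fit over the 41091 probe sets, and for those that name both FOLH1 and FOLH1B from a fit over all 54613 probe sets other than controls. Python 3.11.15 with pandas 2.3.3 and numpy 2.4.6 made the tables, and matplotlib 3.10.9 the figures. The fits were tested on simulated data.

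The genes and lists were chosen with earlier results of these data known. The text names the 7 genes, KDM1A, 3 known androgen-induced genes, the nearest measured neighbours on chromosome 7 and the 2 most correlated genes each. From the lists it names up to 3 passing genes per list and direction. The list paragraphs kept those that passed under every alternative, with some changes added for the other line. Alternatives were a replicate block, quantile normalization, centring on array medians, probe set means in place of the brightest, testing every probe set or bright genes alone, trended and robust variance, a joint fit of all 20 arrays, and the loss of each array in turn. Raw scans were not analysed here.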

Additional observations from a re-analysis of the deposited data

Results flagged for a closer look

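On the DHT arrays, STEAP4 had 1 array apart from the rest: the array of replicate 4 was at 9.41 and the others were at 9.53 to 9.55. The gap divided by the range of the 4 arrays was 0.863, above Dixon's critical value, which chance exceeds in about 5% of groups. The STEAP4 call did not rest on it, since every DHT array was far above the vehicle arrays. Further genes and groups were looked at in the same way, so a flag like this can arise by chance. CD276 on the LNCaP siNTC arrays also had 1 array apart, at 10.06, with the others at 10.21. The siLSD1 effect differed between C42B and LNCaP by 0.26 for STEAP1 and by −0.54 for STEAP3 in the limma contrast, with a positive STEAP1 effect in both lines and a STEAP3 effect of −0.19 in C42B and 0.35 in LNCaP.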

How the results depend on the processing

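Across the alternatives, STEAP1 and STEAP2 in C42B, STEAP2 in LNCaP, STEAP3, STEAP4 and FOLH1 with DHT, and the STEAP3 difference between lines kept direction and call. In LNCaP, 5 of the 7 genes passed among bright genes only, 5 with trended and robust variance and 5 with all 20 arrays in the fit, against 3 as reported, and 1 to 5 with an array left out. For the line difference 1 passed with every probe set tested, 1 after quantile normalization and 1 with a replicate block, against 2, and 1 to 3 with an array left out. With an array left out, 2 genes passed in C42B and 3 with DHT, and 1907 to 3962 of all genes passed with siLSD1 in C42B, against 3569. Replicate numbers paired no arrays (same-number correlations of −0.096 to 0.199, in each comparison not always the highest), and with a replicate block STEAP3 in C42B and the STEAP1 difference no longer passed (limma adjusted p = 0.098 and 0.072).

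Signs turned mainly for genes that had not passed, but also for TMEFF2, which had. STEAP4 in C42B was at 0.021 after quantile normalization, 0.0079 after median centring and −0.078 to 0.125 with an array left out, which put PSCA at −0.022 to 0.102 in C42B and at −0.027 to 0.050 with DHT. GTPBP10 was then at −0.042 to 0.142 with DHT and at −0.137 to 0.013 with siLSD1 in LNCaP. For the DHT minus siLSD1 difference such losses gave −0.043 to 0.017 for CD276 and −0.095 to 0.029 for PSCA. The mean of its probe sets gave CD276 a line difference of −0.083 and a DHT minus siLSD1 difference of 0.109. TMEFF2, a list gene dim in both siRNA groups of C42B, had a line difference that passed at 0.41. The mean of the TMEFF2 probe sets gave −0.35. The cause was not tested. Low signal limits STEAP4 outside DHT, PSCA in LNCaP and the dimmer probe sets of STEAP3 and CD276.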

Other observations

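Levels of androgen-induced genes in C42B groups are listed as values and not compared, since the siRNA and the DHT experiments were apparently normalized separately. KLK3 averaged 13.98 with DHT, 13.67 with siNTC and 11.24 with vehicle, and TMPRSS2 averaged 12.23, 11.70 and 9.14 in the same order, all in medium with stripped serum. FKBP5 averaged 13.86 with DHT, 11.06 with siNTC and 10.74 with vehicle. STEAP4 averaged 9.51, 4.28 and 4.10.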
